A study of Mus musculus with 8 samples.

Results

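The genes of the cell cycle and of DNA replication were followed in adult oligodendrocyte progenitor cells (aOPC) and adult oligodendrocytes (aOL) of the mouse brain. The members are a fixed list of 40 genes, from the proliferation markers Mki67 and Top2a to the cyclins, their kinases and inhibitors, the E2F and pocket proteins, the MCM helicase, nucleotide synthesis and mitotic kinases. Of these, 25 had a row in the RNA tables, which hold 11315 genes, and 39 had a CpG site in the tables of 5-hydroxymethylcytosine (5hmC), with 1287 of 1497075 sites. Membership came from names and used no measured value, although the list was chosen with earlier results of these data known. Both populations were sorted by fluorescence from C57BL/6 brains at postnatal day 60. The aOPC came from Pdgfra-H2BEGFP mice, in which the Pdgfra locus drives a histone H2B tagged with EGFP, and the aOL from another reporter line, in which the promoter of a myelin gene drives EGFP. Each population had 2 RNA-seq libraries and 2 libraries of reduced representation hydroxymethylation profiling (RRHP), the replicates numbered 2 and 3. A first replicate was not analysed here. A tissue label of the aOL RRHP libraries names the Pdgfra reporter, so the titles set the groups, and the RNA titles call the aOL pre-myelinating where the protocol text says myelinating. The study's methods speak of biological replicates, but the animals behind each library are not given in the sources used here.

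A cell enters the cycle when D-type cyclins activate Cdk4 and Cdk6, which phosphorylate the pocket proteins Rb1, Rbl1 and Rbl2 and so release the E2F factors. E2F proteins drive the genes of the next steps: cyclins E and A with Cdk2, the MCM helicase that licenses origins, the sliding clamp Pcna and the enzymes of nucleotide synthesis. Cyclin B with Cdk1, the Aurora and Polo kinases and the spindle checkpoint then carry the cell through mitosis. Adult OPCs keep a slow division, whereas oligodendrocytes have left the cycle, held out of it by the Cdk inhibitors and the pocket proteins.

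The identity of the libraries bears on every value below. The 4 RNA libraries had nearly the same distribution of values, with a median of 10.57, an upper quartile of 11.92 and a summed level over all genes of 25.87 in each (log2). Size factors alone would not make distributions equal, so a level here is close to the gene's rank in its library, and the step behind this is not given in the sources used here. In the RNA tables, the levels of the oligodendrocyte markers overlapped between the aOPC and the aOL libraries, with a median over 10 genes of 17.77 and 17.20 in aOPC against 17.48 and 17.57 in aOL (log2 level), and their summed level was 21.49 and 21.03 in aOPC against 21.33 and 21.42 in aOL. The OPC list (9 of 11 genes present, Cacng4 and C1ql1 absent) had a summed level of 12.35 and 10.71 in aOPC against 10.83 and 11.29 in aOL. Pdgfra, the gene behind the aOPC reporter, was at 7.54 and 5.47 in aOPC against 4.98 and 1.63 in aOL. It, Neu4, Vcan, Sox6 and Pcdh15 were lower in both aOL libraries than in both aOPC libraries, Matn4 was higher in both, and Cspg4, Ptprz1 and Lhfpl3 overlapped. Of the 10 oligodendrocyte markers, 2 were higher and 4 lower in both aOL libraries than in both aOPC libraries, and 0 passed the limma test (0 higher and 4 lower at an unadjusted p under 0.05). Markers of fibroblasts and meninges (3 of 4 genes present) summed to 11.10 and 11.24 in aOPC against 7.94 and 6.64 in aOL, and the 2 of 9 endothelial and mural markers that were present, Cldn5 and Vtn, to 5.01 and 7.13 in aOPC against 6.96 and 9.96 in aOL. Astrocyte markers (8 of 8 present) summed to 13.76 and 13.41 in aOPC against 13.43 and 13.64 in aOL, microglia markers (10 of 11) to 12.59 and 11.94 in aOPC against 12.11 and 11.70 in aOL, neuron markers (6 of 8) to 12.13 and 12.46 in aOPC against 11.68 and 11.84 in aOL and erythroid markers (5 of 5) to 11.20 and 14.54 in aOPC against 12.70 and 12.83 in aOL. No marker was at 0, and the lowest was Cldn5 in aOPC replicate 2 (0.33). The part of other cells in the values below was not tested, and in bulk libraries fewer cells of a type and less RNA per cell cannot be told apart. The 2 aOPC libraries also differed more from each other, with a median gap per gene of 0.48 log2 units against 0.12 between the aOL libraries. The RRHP counts summed over the listed sites ran from 7113237 to 27057859 per library, the fewest in aOPC replicate 2.

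Most of the 15 members absent from the RNA tables act in S phase or mitosis. They were 6 of the 7 cyclins and kinases of S and M phase (Ccna2, Ccnb1, Ccnb2, Ccne1, Ccne2 and Cdk1, leaving Cdk2), 4 of 7 mitotic kinases and checkpoint genes (Bub1, Aurkb, Plk1 and Wee1), 2 of 3 genes of nucleotide synthesis (Rrm2 and Tyms), 2 of 6 pocket and E2F genes (Rbl1 and E2f1) and 1 of 5 genes of the D-type cyclin group (Cdk6). All 7 genes of the clamp and the MCM helicase, both proliferation markers and all 3 Cdk inhibitors were present. A gene without a row has no value, and how the authors chose the listed genes is not given in the sources used here, so absence was not read as a level. By comparison, 25 of 43 other mitosis genes, 34 of 41 other replication genes and 27 of 32 other G1 regulators were listed.

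No member passed the test in RNA. Of 25 members tested with limma, 0 were called between aOL and aOPC, where 0.0808% of the 11133 genes tested were called (p under 0.01 and adjusted p under 0.05). At an unadjusted p under 0.05, 4 members (Rbl2, Rb1, Mcm4 and E2f3) were higher in aOL (16.0%, against 12.1% of all genes) and 2, Ccnd2 and Cdk4, were lower (8.0%, against 12%). Both aOL libraries lay above both aOPC libraries in 9 members (36.0%, against 31.9% of all genes) and below them in 10 (40%, against 29.9%). These shares were near the background or rested on few genes. With 1 library left out, 9 members were called without aOPC replicate 2 (where 3995 of 11000 genes were called), 7 without aOPC replicate 3 (2344 of 11001 genes), 1 without aOL replicate 2 (100 of 11053 genes) and 0 without aOL replicate 3 (99 of 11046 genes), where the lone library is assumed to vary like the other group. The median difference of the members was -0.19 on the log2 scale, against 0.023 for all genes, and it was 0.28 when only genes at log2 8 or more in at least 2 libraries were kept and 0.11 without aOPC replicate 3. Levels are log2 values per gene and not per length, so they were compared between libraries and not between genes.

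**Figure D1:**
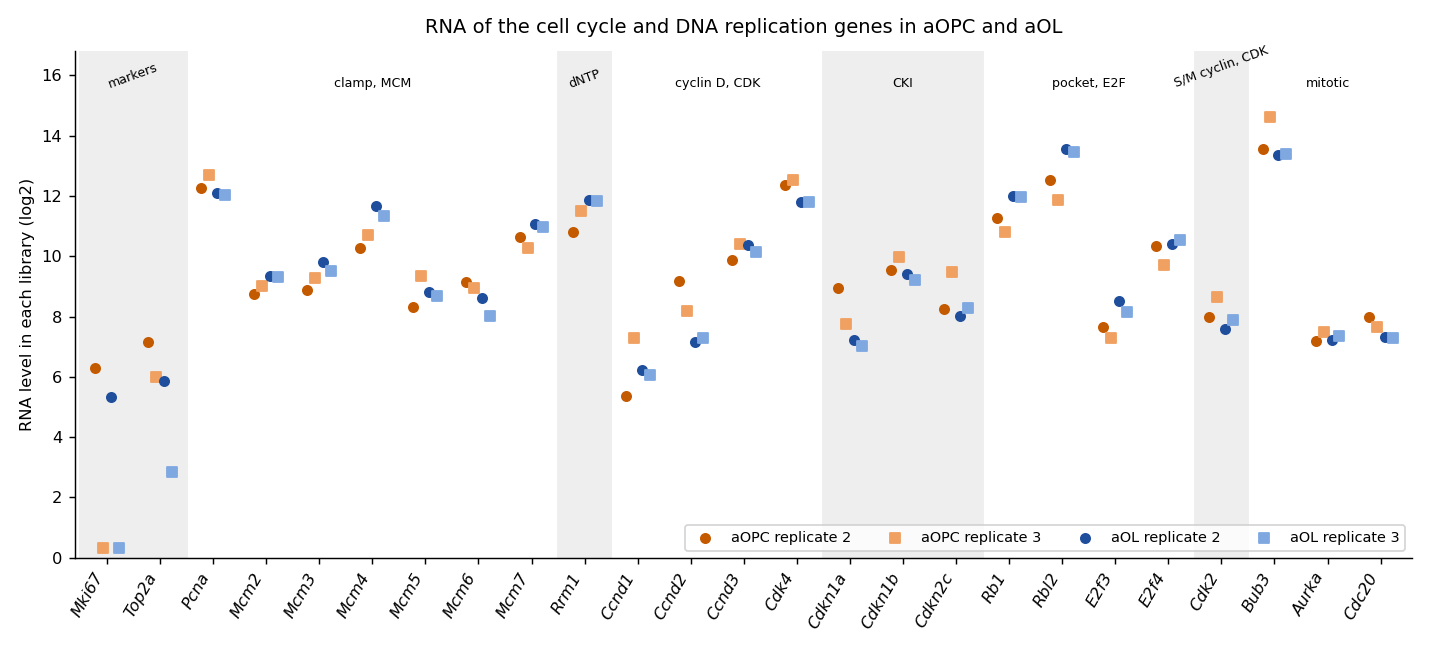
Log2 RNA level (vertical axis) of the 25 members listed in the RNA tables, ordered by role along the horizontal axis, with 1 point for each library (circles, replicate 2; squares, replicate 3; orange, aOPC; blue, aOL). Mki67 lay at the lowest value of the table, 0.32, in replicate 3 of both populations.

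The proliferation markers were uneven between replicates. Mki67, the Ki-67 antigen of dividing cells, was at 6.28 and 0.32 in aOPC against 5.33 and 0.32 in aOL. The value of 0.32 in both replicate 3 libraries was the lowest of their tables, shared by 18 genes in each, so the spread between replicates exceeded the difference between the group means. Top2a, the topoisomerase that disentangles replicated DNA, was at 7.16 and 5.99 in aOPC against 5.85 and 2.83 in aOL. Both aOL libraries lay below both aOPC libraries, and its difference of -2.23 (SE 1.14) was the largest of any member (limma adjusted p = 0.304). It was -0.72 without aOL replicate 3 and -3.74 without aOL replicate 2, where Top2a was the 1 member called (limma adjusted p = 0.0170). The 2 aOL values were 3.02 log2 units apart, more than the difference between the group means.

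In the replication machinery the clamp and the helicase subunits did not move one way. Pcna, the sliding clamp, was at 12.28 and 12.68 in aOPC against 12.10 and 12.02 in aOL, a difference of -0.42 (SE 0.23, limma adjusted p = 0.331). Mcm2, Mcm3, Mcm4 and Mcm7 were higher in both aOL libraries, Mcm6 was lower in both, and Mcm5 overlapped, although these 6 proteins form a single ring that is loaded at origins. Mcm4 had the clearest separation, at 10.28 and 10.72 in aOPC against 11.68 and 11.33 in aOL. Its difference was 1.01 (SE 0.27, limma adjusted p = 0.160), and its 2 aOL libraries were both above the higher aOPC library. Mcm3, Mcm7 and Mcm2 lay above 0 by less. Mcm3 was at 8.86 and 9.28 in aOPC against 9.80 and 9.52 in aOL. Mcm7 was at 10.64 and 10.27 in aOPC against 11.06 and 10.96 in aOL. Mcm2 was at 8.75 and 9.0 in aOPC against 9.34 and 9.32 in aOL. These 3 differed by 0.45 to 0.59 on the log2 scale, with limma adjusted p-values from 0.235 to 0.264. Mcm6 went the other way, at 9.15 and 8.95 in aOPC against 8.61 and 8.03 in aOL, a difference of -0.73 (SE 0.28, limma adjusted p = 0.222). Mcm5 was at 8.31 and 9.35 in aOPC against 8.80 and 8.67 in aOL. The aOPC replicates enclosed both aOL values of Mcm5. Rrm1, the large subunit of ribonucleotide reductase and the only listed gene of nucleotide synthesis, was at 10.80 and 11.50 in aOPC against 11.87 and 11.84 in aOL, higher in both aOL libraries (limma adjusted p = 0.253).

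No gene of the G1 switch passed the test. Of the 4 D-type cyclin and kinase genes listed, Ccnd2 and Cdk4, which push a cell into the cycle, had both aOL libraries below both aOPC libraries, and Ccnd1 and Ccnd3 overlapped. Cyclin D2, encoded by Ccnd2, was at 9.19 and 8.18 in aOPC against 7.17 and 7.30 in aOL. Its difference was -1.45 (SE 0.40, limma adjusted p = 0.164), it was -0.94 without aOPC replicate 2, and the lower aOPC library was still above both aOL libraries. Cdk4, the catalytic partner of the D cyclins, was at 12.36 and 12.54 in aOPC against 11.81 and 11.80 in aOL, a difference of -0.64 (SE 0.20, limma adjusted p = 0.177). The replicates of Cdk4 were close in both groups. Ccnd1 was at 5.37 and 7.29 in aOPC against 6.24 and 6.05 in aOL. Ccnd3 was at 9.88 and 10.39 in aOPC against 10.37 and 10.13 in aOL. The groups overlapped in both of these cyclins. Cdk2, which works with cyclins E and A, was at 7.98 and 8.66 in aOPC against 7.58 and 7.89 in aOL, with both aOL libraries below both aOPC libraries (limma adjusted p = 0.330).

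Rb1, Rbl2, E2f3 and E2f4, the 4 pocket and E2F genes with RNA values, each had both aOL libraries above both aOPC libraries. Rbl2, which encodes the pocket protein p130 of quiescent cells, was at 12.54 and 11.86 in aOPC against 13.56 and 13.46 in aOL. Its difference of 1.31 (SE 0.30) was the largest positive one of any member (limma adjusted p = 0.144). The retinoblastoma gene Rb1 was at 11.27 and 10.81 in aOPC against 12 and 11.97 in aOL, a difference of 0.95 (SE 0.24, limma adjusted p = 0.156). The aOL replicates were nearly equal in both genes. E2f3, an activator E2F, was at 7.66 and 7.29 in aOPC against 8.51 and 8.14 in aOL (limma adjusted p = 0.177). E2f4, an E2F that represses together with pocket proteins, was at 10.33 and 9.70 in aOPC against 10.41 and 10.53 in aOL, with one aOPC library just below the aOL values (limma adjusted p = 0.390). For this group of 4 the median difference was 0.90, and 3 of the 4 were at an unadjusted p under 0.05, where 12.1% of all genes were higher at that threshold and 31.9% higher without overlap. None was called.

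The 3 Cdk inhibitors, which stop the cycle, lay below 0 and none passed the test. Of all 25 members 15 lay below 0, and of the 11133 genes tested 5420. Cdkn1a, which encodes p21, was at 8.95 and 7.75 in aOPC against 7.23 and 7.03 in aOL, a difference of -1.22 (SE 0.46, limma adjusted p = 0.216), and its aOPC replicates were 1.2 apart. The difference was -0.62 without aOPC replicate 2. Cdkn1b, which encodes p27, the inhibitor long tied to the cell cycle exit of OPCs, was at 9.54 and 9.98 in aOPC against 9.42 and 9.22 in aOL (limma adjusted p = 0.347). Cdkn2c, which encodes the Cdk4 and Cdk6 inhibitor p18, was at 8.25 and 9.48 in aOPC against 8.03 and 8.30 in aOL. Both aOL libraries lay below both aOPC libraries in Cdkn1a and Cdkn1b, as in 40% of members and 29.9% of all genes. The groups overlapped in Cdkn2c. Of the mitotic genes, Bub3, a checkpoint protein, was at 13.55 and 14.62 in aOPC against 13.37 and 13.38 in aOL, and the distance between its aOPC replicates (1.06) exceeded the difference between the groups. Cdc20, the activator of the anaphase-promoting complex, was at 7.99 and 7.64 in aOPC against 7.32 and 7.30 in aOL (limma adjusted p = 0.253). Aurka, the Aurora kinase of the centrosome, was at 7.18 and 7.48 in aOPC against 7.21 and 7.35 in aOL. Cdc20 was lower in both aOL libraries by a small margin and Aurka did not separate the groups.

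**Figure D2:**
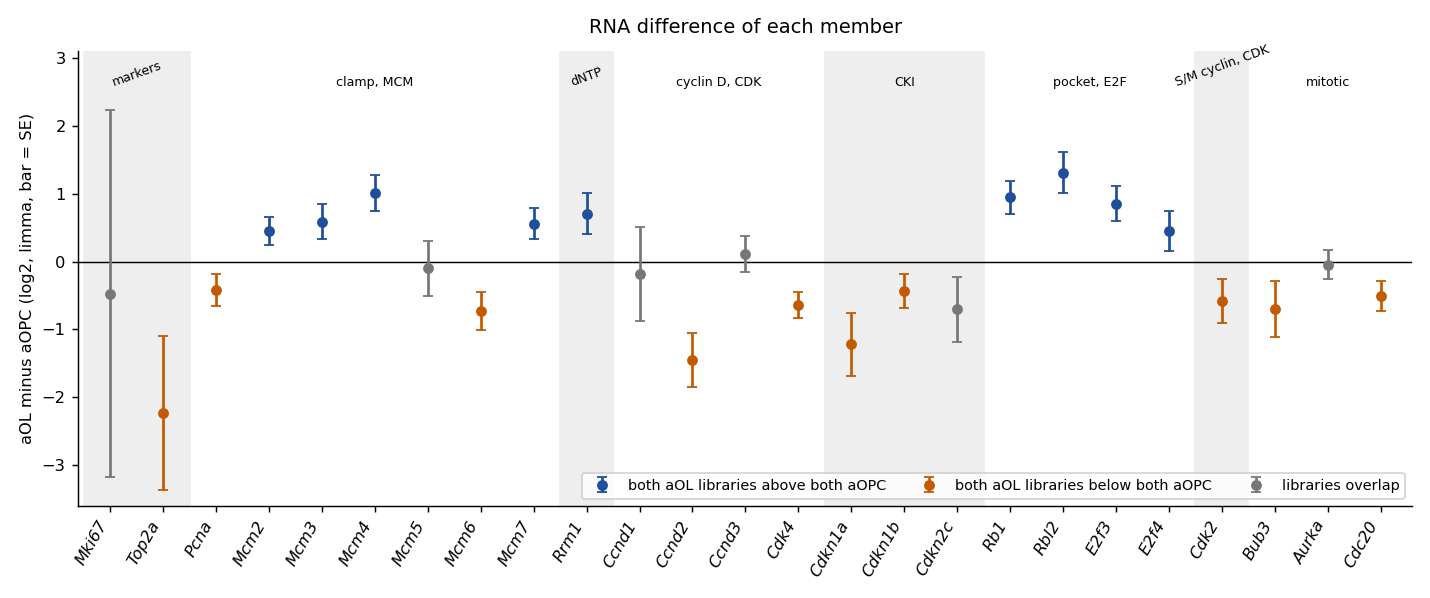
Difference in RNA between aOL and aOPC for each of the 25 members (vertical axis, log2, aOL minus aOPC, from limma), with the standard error as the bar (n = 2 libraries per group). Blue points mark genes whose aOL libraries both lay above both aOPC libraries and orange points the reverse. The pocket and E2F genes all lay above 0, as did 10 of the 25 members, and the Cdk inhibitors below it, as did 15. No member was called.

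No gene of the wider pathway passed the test either. Of 116 other genes of replication, mitosis and G1 control, 86 were tested in RNA, 0 were called by limma, 7 were higher and 9 lower at an unadjusted p under 0.05 (8.14% and 10.5%, against 12.1% and 12% of all genes), and the median difference was -0.036. In the replication list, 5 of 34 were lower and 1 higher at that threshold, with 23 of the 34 below 0 and a median of -0.22. Lower and higher genes numbered, in the mitosis list, 1 and 3 of 25, and among G1 regulators 3 and 3 of 27. The largest difference among genes without overlap belonged to Cdc25a, the phosphatase that activates Cdk2, at 7.31 and 7.64 in aOPC against 9.10 and 9.56 in aOL. Orc2, a subunit of the origin recognition complex, was at 11 and 11.02 in aOPC against 9.48 and 9.34 in aOL. These 2 genes differed by 1.85 and -1.60 (limma adjusted p = 0.122 and 0.106). Lin9, of the DREAM complex, differed by 1.33 and Pttg1, securin, by -1.31 (limma adjusted p = 0.218 and 0.204).

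RRHP was used to ask whether 5hmC at these genes differed between the populations. The method keeps a CCGG only where 5hmC, once glucosylated, protects it from the enzyme MspI, and all 1287 member sites lay at a CCGG of GRCm38. Counts are per strand of a CpG, and CPM is reads scaled to a library of 1000000 reads after TMM normalization. The promoters of the members are poor in reads. Member promoter sites in a CpG island averaged 0.293 and 0.0962 in aOPC against 0.0748 and 0.119 in aOL in CPM (here of the library total, without TMM). Member gene body sites outside promoters and islands averaged 1.05 and 1.12 in aOPC against 1.12 and 1.05 in aOL, and over all listed sites of this kind the averages were 0.829 and 0.932 in aOPC against 0.954 and 0.904 in aOL. The aOPC replicate 2 library was higher at island promoter sites than the other 3, in the members as over all listed sites (0.288 and 0.102 in aOPC against 0.0903 and 0.136 in aOL). That library had the fewest reads and the part of depth or background in this was not tested.

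Promoter sequences show what the assay could read. RefSeq promoters of GRCm38.p6, from 250 bases before the start to 50 after it, were matched by symbol for 31 of the 40 members. Of these, 27 held a CCGG (87.1%), against 52.6% of 27025 promoters. The letters CCAAT, searched on both strands, stood in 21 (67.7%, against 37.9%). The letters TTTGAA of the CHR element, bound by the DREAM complex, stood in 11 (35.5%, against 18.1%). Any of the E2F letters TTTCCCGC and TTTGGCGC and TTTCGCGC and TTTGCCGC, on either strand and counted also where they overlap another motif, stood in 8 (25.8%, against 2.32%). A match of letters is a description and no evidence of binding. The 250 bases before the start of Top2a and Cdk1 are shown for these letters, with CCAAT and TTTGAA and the E2F letters (both strands) in capitals:
Top2a, chr11:99024190-99024439, minus strand: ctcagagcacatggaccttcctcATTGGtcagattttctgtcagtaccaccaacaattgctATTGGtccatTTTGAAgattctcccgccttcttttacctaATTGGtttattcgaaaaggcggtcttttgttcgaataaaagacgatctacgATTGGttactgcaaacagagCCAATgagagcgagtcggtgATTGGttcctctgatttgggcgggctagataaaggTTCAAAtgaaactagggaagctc
Cdk1, chr10:69352913-69353162, minus strand: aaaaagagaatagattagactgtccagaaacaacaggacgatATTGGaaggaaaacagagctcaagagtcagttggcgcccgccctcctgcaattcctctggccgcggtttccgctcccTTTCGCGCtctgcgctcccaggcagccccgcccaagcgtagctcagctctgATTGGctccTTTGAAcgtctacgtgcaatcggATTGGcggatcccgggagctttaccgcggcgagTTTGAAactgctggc
The Top2a window held 6 CCAAT, 2 TTTGAA and no CCGG, so the assay reads nothing there. The Cdk1 window held 3 CCAAT, 2 TTTGAA, 1 E2F match and 1 CCGG, which had 0, 2, 1 and 5 reads in aOPC replicates 2 and 3 and aOL replicates 2 and 3.

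No member passed the test in promoter 5hmC. Reads in the authors' promoter column could be tested for 36 members (Pcna and Aurka had no promoter site, and Mcm6 and Bub1 too few reads). With edgeR 0 were called, where 0.768% of the 14579 promoters tested were called, and DESeq2 also called 0 members. At an unadjusted p under 0.05, 0 were higher (against 4.18% of all promoters) and 1, Rbl1, lower (2.78%, against 1.79%). The groups did not overlap in 4 that were higher (11.1%, against 14.4%) and 10 that were lower in aOL (27.8%, against 17.3%). The median difference was -0.18 against -0.015 for all promoters, and with library totals in place of TMM both moved down, to -0.79 and -0.60, so that a direction for these promoters holds only relative to that shift.

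Among the pocket and E2F genes, the promoters of Rbl2 and Rbl1 were the lowest of the members. All 6 promoters of this group lay below 0, as did 26 of the 36 members and 7473 of the 14579 promoters tested. In 3 of the 6 both aOL libraries lay below both aOPC libraries, against 17.3% of all promoters and 27.8% of members. Rbl1, which encodes p107, had 55 and 34 reads in aOPC against 20 and 45 reads in aOL, that is 4.42 and 2.46 CPM in aOPC against 1.66 and 1.78 CPM in aOL. Its difference was -0.99 (edgeR adjusted p = 0.602), with aOPC replicate 2 the highest by a wide margin. It was -0.50 without that library, -1.69 with library totals, and -1.33 and called without aOPC replicate 3 (edgeR adjusted p = 0.0111). Rbl2 had 16 and 11 reads in aOPC against 9 and 8 reads in aOL, that is 1.29 and 0.797 CPM in aOPC against 0.747 and 0.316 CPM in aOL, a difference of -1.10 (edgeR adjusted p = 0.972), which was -0.44 without aOL replicate 3, -1.68 without aOL replicate 2 and -1.69 with library totals. Both aOL libraries were below both aOPC libraries in both promoters, at counts that leave wide error. Cdkn1a had 31 and 21 reads in aOPC against 11 and 36 reads in aOL, that is 2.49 and 1.52 CPM in aOPC against 0.913 and 1.42 CPM in aOL and a difference of -0.72 (edgeR adjusted p = 0.998), which was -0.31 without aOPC replicate 2, -1.10 without aOL replicate 3 and -1.40 with library totals. In the other direction stood Rrm1, Cdkn1b and Ccnb2. Rrm1 had 13 and 20 reads in aOPC against 33 and 43 reads in aOL, that is 1.04 and 1.45 CPM in aOPC against 2.74 and 1.70 CPM in aOL, a difference of 0.78 (edgeR adjusted p = 0.998), which was 0.31 with library totals and 0.44 without aOL replicate 2. Cdkn1b had 36 and 50 reads in aOPC against 60 and 126 reads in aOL, that is 2.89 and 3.62 CPM in aOPC against 4.98 and 4.97 CPM in aOL, a difference of 0.61 (edgeR adjusted p = 0.998), which was 0.098 with library totals. Ccnb2, cyclin B2, had 14 and 19 reads in aOPC against 20 and 45 reads in aOL, that is 1.12 and 1.38 CPM in aOPC against 1.66 and 1.78 CPM in aOL, a difference of 0.46 (edgeR adjusted p = 0.998), which was -0.036 with library totals. Over all member promoters the counts ranged from 1 to 159 reads per library. The 250 bases before the start of Rbl1 and Rbl2 are shown since these promoters lay lowest, with each CCGG in capitals:
Rbl1, chr2:157204535-157204784, minus strand: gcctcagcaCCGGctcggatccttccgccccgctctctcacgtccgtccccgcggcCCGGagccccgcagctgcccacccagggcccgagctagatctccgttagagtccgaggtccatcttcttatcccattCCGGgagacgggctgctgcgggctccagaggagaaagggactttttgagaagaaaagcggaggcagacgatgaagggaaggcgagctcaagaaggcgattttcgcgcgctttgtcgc
Rbl2, chr8:91069807-91070056, plus strand: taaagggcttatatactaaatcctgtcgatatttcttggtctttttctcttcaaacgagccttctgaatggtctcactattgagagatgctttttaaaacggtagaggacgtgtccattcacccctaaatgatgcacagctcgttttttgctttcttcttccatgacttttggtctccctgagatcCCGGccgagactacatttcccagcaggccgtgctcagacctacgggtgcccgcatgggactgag
The Rbl1 window held 3 CCGG, which gave 31 and 8 reads in aOPC and 7 and 21 in aOL, so aOPC replicate 2 and aOL replicate 3 were the highest and the groups overlapped in reads. The Rbl2 window held 1 CCGG with at most 3 reads per library.

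**Figure D3:**
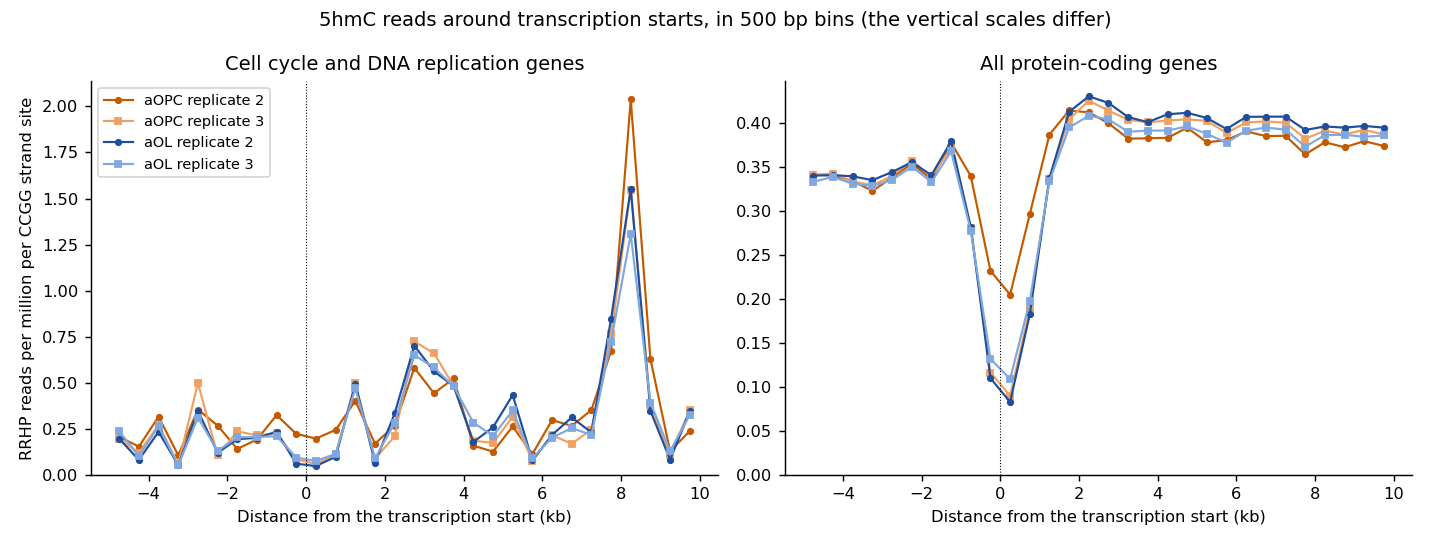
RRHP reads per CCGG strand site in CPM (vertical axis) by distance from the transcription start (horizontal axis, kb, 500 bp bins) in the 4 libraries, for the members on the left and for all protein-coding genes on the right, on different vertical scales. Both panels are low at the start, less so in aOPC replicate 2, and the left panel also has low bins elsewhere and a peak in the bin from 8000 bp.

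The members were low in reads around the transcription start, as all genes were, and were as low in some bins far from it. In the first 500 bases after the start the CPM per strand site of the members were 0.197 and 0.0584 in aOPC against 0.0475 and 0.0752 in aOL. Over all protein-coding genes they were 0.205 and 0.0896 in aOPC against 0.0827 and 0.109 in aOL. In the bin from 2500 to 3000 bases the members had 0.581 and 0.724 in aOPC against 0.701 and 0.650 in aOL, and all genes 0.400 and 0.414 in aOPC against 0.423 and 0.404 in aOL. Their bin from 5500 to 6000 bases had 0.112 and 0.0771 in aOPC against 0.0779 and 0.0887 in aOL, and that from 3500 to 3000 bases before the start 0.105 and 0.0584 in aOPC against 0.0523 and 0.0524 in aOL. At the start aOPC replicate 2 was above the other 3 libraries. The bin from 8000 to 8500 bases reached 2.04 and 1.55 in aOPC against 1.55 and 1.31 in aOL, the bin that holds the CCGG of Cdk1 described below.

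Over whole gene spans the members varied widely in reads per site. The median over 39 members was 0.213 CPM per strand site, against 0.273 over 17590 genes, and the members ranged from 0.0326 (Ccne1) to 1.98 (Cdk1). Cdk1 lay at percentile 99.9 of all genes, although it has no RNA row. Aurkb (percentile 97.0) and Rrm2 (percentile 94.5), also without an RNA row, were near Mcm7 (percentile 95) and Cdk4 (percentile 91.6), which have one. At the low end stood Ccne1, Plk1, Ccnb1, Mcm6 and Bub1, from percentile 2.41 to 6.44. The median was 0.228 over the 24 members in the RNA tables that have at least 10 strand sites and 0.213 over the 15 absent from them. Spans count every CCGG between the ends of a gene, also those of a gene that overlaps it. Pcna, with 2 CCGG in its span, had no reads.

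In gene bodies, summed over the authors' exon and intron columns, Rbl2 was the only member called of 39 tested with edgeR, where 0.849% of the 18488 gene bodies tested were called. At an unadjusted p under 0.05, 2 members, Ccnb2 and Mki67, were higher in aOL (5.13%, against 2.82% of all gene bodies) and 3, Rbl2, Ccnd1 and E2f4, lower (7.69%, against 4.48%). The groups did not overlap in 7 that were higher (17.9%, against 18.8%) and 12 that were lower (30.8%, against 19.3%). The median difference was -0.15, against -0.0027 for all gene bodies, with 29 of 39 members below 0. With 1 library left out, the members called numbered 4 without aOPC replicate 2 (where 609 of 18637 gene bodies were called), 10 without aOPC replicate 3 (4246 of 18790), 0 without aOL replicate 2 (87 of 18809) and 1 without aOL replicate 3 (83 of 18725). The median of the members was -0.023 over sites with 3 reads in every library and 0.026 without aOPC replicate 2.

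Rbl2 (chromosome 8, 91070057 to 91123844, GRCm38) held 262 and 852 reads in aOPC against 365 and 646 reads in aOL over its body. Scaled, these were 36.6 and 50.4 CPM in aOPC against 22.8 and 23.9 CPM in aOL. Both aOL libraries lay below both aOPC libraries, and the ratio of aOL to aOPC was 0.531 (log2 -0.91, edgeR adjusted p = 0.0275). The RNA of Rbl2 lay the other way, higher in both aOL libraries, in the values given above. The call rested on the libraries and sites used: the log2 difference was -0.59 with an adjusted p of 0.462 over sites with 3 reads in every library, and -0.87 with an adjusted p of 0.0922 without aOL replicate 2. Apart from the 3 sites called below, the body of Rbl2 held 159 and 551 reads in aOPC and 268 and 469 in aOL. That was 22.2 and 32.6 CPM against 16.7 and 17.3 CPM, still without overlap but closer.

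No other member's gene body passed the test. Among the pocket and E2F genes, Rb1 had 21.1 and 23.5 CPM in aOPC against 26.2 and 28.7 CPM in aOL, a difference of 0.29 (edgeR adjusted p = 0.716). Rbl1 had 12.9 and 15 CPM in aOPC against 16.1 and 16.0 CPM in aOL. E2f4 had 15.8 and 12 CPM in aOPC against 10.7 and 9.23 CPM in aOL, lower in both aOL libraries (edgeR adjusted p = 0.668). Rb1 and Rbl1 thus lay above 0 and Rbl2 and E2f4 below it. Of the cyclins, Ccnb2 had 59 and 112 reads in aOPC against 192 and 289 reads in aOL, that is 8.25 and 6.62 CPM in aOPC against 12 and 10.7 CPM in aOL, a difference of 0.63 (edgeR adjusted p = 0.451). Ccnd1 had 26.3 and 22.6 CPM in aOPC against 18.6 and 18.2 CPM in aOL, lower in both aOL libraries (edgeR adjusted p = 0.546). Cyclin B2 and cyclin D1 thus lay on opposite sides of 0. Ccnb1, cyclin B1, held only 13 and 13 reads in aOPC against 7 and 19 reads in aOL, and its difference of -1.06 did not pass the test (edgeR adjusted p = 0.768) and ran from -1.60 to -0.38 with 1 aOPC library left out. Mki67 had 50 and 108 reads in aOPC against 200 and 228 reads in aOL, that is 6.99 and 6.38 CPM in aOPC against 12.5 and 8.42 CPM in aOL. Its difference of 0.64 was the largest positive one (edgeR adjusted p = 0.588), with aOL replicate 2 the highest, and it was 0.34 without that library. Tyms, thymidylate synthase, held 10 and 21 reads in aOPC against 9 and 31 reads in aOL, a difference of -0.58 (edgeR adjusted p = 0.832) that ran from -1.21 to -0.19 with 1 aOL library left out. Ccnd3 and Cdk1 held the most reads of the members, and neither passed the test. Ccnd3 had 165 and 162 CPM in aOPC against 153 and 142 CPM in aOL (edgeR adjusted p = 0.797). Cdk1 had 129 and 98.6 CPM in aOPC against 99.2 and 87.4 CPM in aOL (edgeR adjusted p = 0.737). Cdk4, Wee1, Aurka, Aurkb and the MCM genes other than Mcm3 had edgeR adjusted p-values from 0.780 to 0.977.

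The other gene bodies described here lay on either side of 0. Cdk6, which has no RNA row, had 48.5 and 61.1 CPM in aOPC against 68.5 and 64.8 CPM in aOL, with both aOL libraries above both aOPC libraries (edgeR adjusted p = 0.726). E2f3 had 70.9 and 85.1 CPM in aOPC against 97.6 and 84.7 CPM in aOL and overlapped. E2f1, an activator E2F also without an RNA row, had 8.39 and 11.5 CPM in aOPC against 6.94 and 7.79 CPM in aOL, lower in both aOL libraries (edgeR adjusted p = 0.726). Cdk6 and E2f1 thus lay on opposite sides of 0. Ccnd2 had 32.6 and 30.4 CPM in aOPC against 25.4 and 28.0 CPM in aOL, lower in both aOL libraries as in RNA (edgeR adjusted p = 0.749). In the helicase, Mcm3 had 15.4 and 12.5 CPM in aOPC against 10.9 and 11.5 CPM in aOL and Mcm7 25.7 and 28.3 CPM in aOPC against 32.9 and 28.8 CPM in aOL. The body of Mcm3 was lower and that of Mcm7 higher in aOL without overlap, and neither was called (edgeR adjusted p = 0.750 and 0.780). Aurkb, the kinase of the chromosomal passenger complex, had 14.8 and 18.4 CPM in aOPC against 18.1 and 15.3 CPM in aOL, and the groups overlapped. Rrm2, the small subunit of ribonucleotide reductase, had 14.4 and 19.9 CPM in aOPC against 14.9 and 18.5 CPM in aOL. Cdk2 had 4.19 and 1.71 CPM in aOPC against 1.44 and 1.88 CPM in aOL, a difference of -0.76 (edgeR adjusted p = 0.774). Cdkn1b had 6.71 and 2.78 CPM in aOPC against 1.94 and 3.29 CPM in aOL, a difference of -0.79 (edgeR adjusted p = 0.752). In both genes aOPC replicate 2 stood above the other 3 libraries and the groups overlapped. The fewest reads were those of Ccne2, Ccnb1, Tyms and Bub1, with 7 to 45 reads per library.

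**Figure D4:**
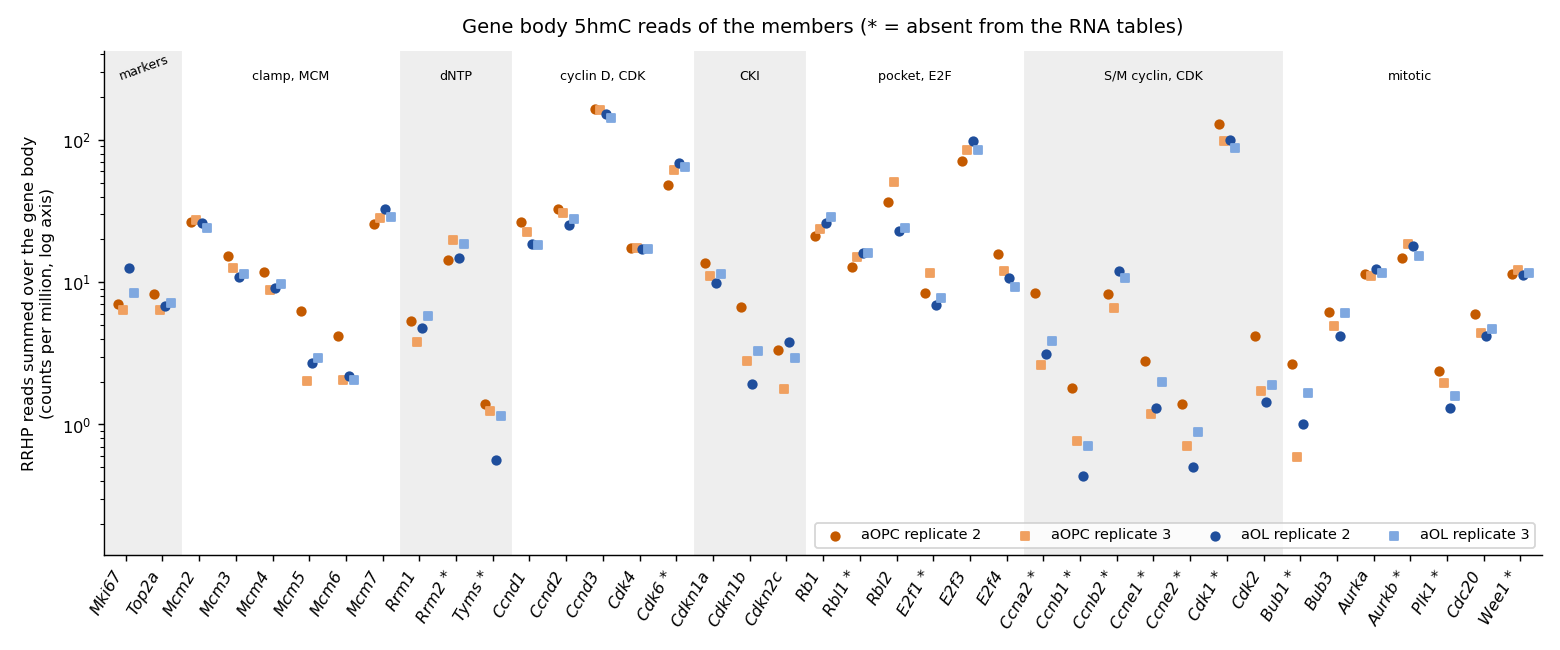
RRHP reads summed over the gene body (vertical axis, CPM, log axis) for the 39 members with a site, ordered by role, with 1 point for each library (orange, aOPC; blue, aOL; circles, replicate 2; squares, replicate 3). An asterisk marks the 15 members absent from the RNA tables; the libraries of Rbl2 separate by population, and in members with few reads such as Ccnb1 and Ccne2 the replicates spread widely.

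The share of a body's reads that came from its top CCGG varied between genes. Over the 39 members, the CCGG with the most reads held a median of 28.7% of the body's reads, and it held more than 50% in 3 of them. In Cdk1 a CCGG in an intron (chromosome 10, 69344670) held 582 and 865 reads in aOPC against 810 and 1140 reads in aOL, which was 51.9% of the body. Both strands of this CCGG were high in all 4 libraries. It is shown because it carries most of the reads of Cdk1, with the CCGG in capitals:
Cdk1, chr10:69344656-69344685, plus strand: ctggatccaatacCCGGtaccacacacaaa

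Single CpG sites were tested next. Of 1287 member sites, 295 in 34 members had at least 10 reads in at least 2 libraries, and 283 of these lay in a gene body. With edgeR 5 were called higher in aOL, where 1.21% of the 443062 sites tested were called higher, and 6 lower, where 1.08% were. Since each population has 2 libraries, a site can pass this minimum through one population alone. That held for 8 of the 11 called sites (all but Rbl2 site 3 and those of E2f3 and Ccnd1), so these had to differ. Their number, fold bounds and adjusted p-values below are a description and add no support. The 11 sites lay in 6 genes: 4 in Ccnd3, 3 in Rbl2 and 1 each in Rb1, Rrm2, E2f3 and Ccnd1. The 30 bases of GRCm38 around each are shown on the strand that was read, since they are the positions where the populations differed, with the CCGG in capitals and the sites of a gene numbered along the chromosome:
Rbl2 site 1, chr8:91088254-91088283, minus strand: tggctcacaaccaCCGGtaacgagatctga
Rbl2 site 2, chr8:91099466-91099495, plus strand: ccttttgactctaCCGGatccttaggtaga
Rbl2 site 3, chr8:91112567-91112596, minus strand: tggttacctggctCCGGgcctgtggctgag
Ccnd3 site 1, chr17:47530476-47530505, minus strand: gcttgtttcagctCCGGcactagaaccatt
Ccnd3 site 2, chr17:47534717-47534746, minus strand: tacagagtgagatCCGGgatggccaggtcg
Ccnd3 site 3, chr17:47540008-47540037, plus strand: aggacagcaggccCCGGgaagcttctgggg
Ccnd3 site 4, chr17:47541413-47541442, minus strand: ctgcctcccagccCCGGgggttacactggt
Rrm2 site 1, chr12:24711625-24711654, minus strand: cacgaaaacgttcCCGGtgaggcctcggta
Rb1 site 1, chr14:73195574-73195603, minus strand: ttgtttttttgtaCCGGttgaaactataca
E2f3 site 1, chr13:29909146-29909175, plus strand: cacaagtaatcaaCCGGgaaaactcacaaa
Ccnd1 site 1, chr7:144934407-144934436, minus strand: ctggggattgaacCCGGtgtgtatgccagg

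Most of these sites had reads in one population and almost none in the other. Rbl2 site 1, in an intron, had 88 and 232 reads in aOPC against 0 and 0 reads in aOL. That is at least 94.5-fold lower in aOL, with a floor of 3 counts per library (edgeR adjusted p = 3.14e-06). Rbl2 site 2, in an intron further along, had 0 and 0 reads in aOPC against 92 and 164 reads in aOL, at least 17.7-fold higher in aOL (edgeR adjusted p = 1.61e-05). The same gene thus held called sites of both directions. Rbl2 site 3, in an exon, had 15 and 69 reads in aOPC against 5 and 13 reads in aOL, a log2 difference of -3.01 (edgeR adjusted p = 0.00101).

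In Ccnd3, site 1 had 17 and 105 reads in aOPC against 0 and 0 reads in aOL, at least 30.1-fold lower in aOL (edgeR adjusted p = 3.18e-05). Site 3 had 27 and 67 reads in aOPC against 0 and 1 reads in aOL (edgeR adjusted p = 1.64e-05), and site 4 had 13 and 46 reads in aOPC against 0 and 0 reads in aOL, at least 16.3-fold lower (edgeR adjusted p = 9.42e-05). Site 2, which lies between sites 1 and 3, had 1 and 0 reads in aOPC against 79 and 107 reads in aOL (edgeR adjusted p = 6.72e-05). All 4 lie in introns, and they do not share a direction. The body of Ccnd3 as a whole was not called, and these sites held a small part of its 1180 to 3850 reads. Rrm2 site 1, in an intron, had 0 and 0 reads in aOPC against 50 and 107 reads in aOL (edgeR adjusted p = 8.16e-05), at least 10.6-fold higher in aOL. Its opposite strand had 21 and 111 reads in aOPC against 45 and 51 reads in aOL, so the absence of aOPC reads held for one strand of the CCGG only. The opposite strand of Ccnd3 site 2 likewise had 26 and 118 reads in aOPC against 133 and 206 reads in aOL. Rb1 site 1, in an exon, had 2 and 3 reads in aOPC against 58 and 77 reads in aOL (log2 difference 3.83, edgeR adjusted p = 0.000429). E2f3 site 1, in an exon, had 5 and 10 reads in aOPC against 51 and 75 reads in aOL (log2 difference 2.16, edgeR adjusted p = 0.0103), while its opposite strand had 114 and 158 reads in aOPC against 171 and 220 reads in aOL. Ccnd1 site 1, in an intron, had 20 and 58 reads in aOPC against 23 and 21 reads in aOL (log2 difference -1.65, edgeR adjusted p = 0.0372). These 2 calls had the highest adjusted p-values of the 11, and both were lost with a library left out. That of E2f3 had an edgeR adjusted p of 0.101 without aOL replicate 2 and 0.0558 without aOL replicate 3, and that of Ccnd1 0.152 and 0.9999. The call of Ccnd1 was also lost with library totals in place of TMM (edgeR adjusted p = 0.0574) and with 5 reads in 2 libraries required (0.0517). The opposite strand of Ccnd3 site 1 had 4 and 25 reads in aOPC against 0 and 0 reads in aOL, with reads in the same population as the called strand. That of Ccnd1 site 1 had 30 and 82 reads in aOPC against 68 and 105 reads in aOL. At Rbl2 site 1 and Rb1 site 1 the opposite strand had at most 1 read per library, and at 4 sites (Rbl2 sites 2 and 3, Ccnd3 sites 3 and 4) it was not listed.

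Called sites read in one population only, here with at most 3 reads in each library of the other (a limit chosen after their values were seen), made up 8 of the 11 called member sites. Over all member and other sites, such called sites made up 76.4% of calls and 1.75% of the sites tested, and they were unevenly placed. The 5 Mb bin of chromosome 8 that holds Rbl2 held 155 such called sites among 1176 sites tested (13.2%), rank 10 of 532 bins, and in the bin of Rrm2 they were 12.4% of the sites tested, rank 12, against a median of 0.550%. The share was 2.47% in the bin of Ccnd3 and, in that of Rb1, 0.254%. Rbl2, the one gene body called, thus lies where such called sites are frequent. The populations come from 2 reporter lines, and the line and the population cannot be told apart here. With at least 10 reads required in every library, which leaves out such sites, 1 member site was called, and it was none of these 11. Of the 11, that of Ccnd1 alone has such counts (edgeR adjusted p = 0.0622 there). The number of member sites called also changed with the library left out.

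**Figure D5:**
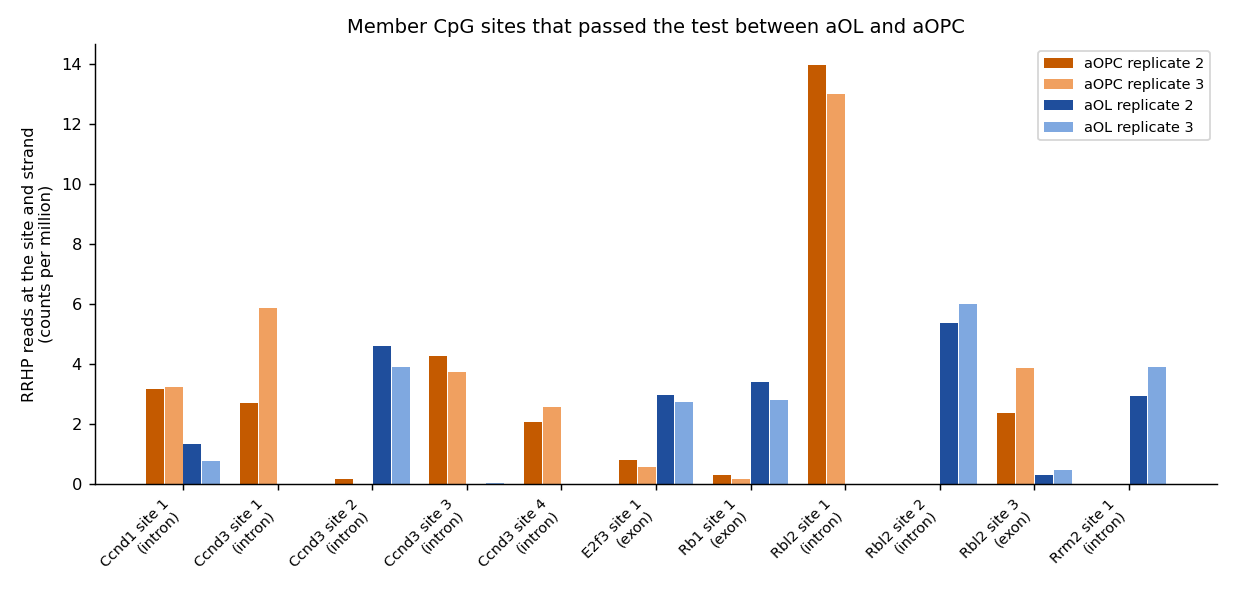
RRHP reads at each of the 11 member CpG sites that passed the test (horizontal axis, by gene and position along the chromosome), in CPM after TMM scaling (vertical axis), with 1 bar for each library (orange, aOPC; blue, aOL). In 8 of the sites one population had at most 3 reads in each library, and Rbl2 and Ccnd3 each hold sites of both directions.

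RNA and gene body 5hmC of the members were set side by side for the 24 members measured in both. They had the same sign of difference in 15 (62.5%), against 55.3% of 10388 genes. Across members Spearman's rho was 0.0948 and Pearson's r 0.00252, against 0.139 and 0.107 over all genes, values that describe genes from the same 2 populations and are not a test. Without overlap, Rbl2, E2f4, Mcm2 and Mcm3 were higher in aOL in RNA and lower over the body. Rb1 and Mcm7 were higher in both measures, and Ccnd2 and Cdk4 lower in both. None of these was called in RNA, and only Rbl2 was called over its body. In the wider pathway, 113 of 116 gene bodies were tested and 0 called by edgeR, with 6 higher and 2 lower at an unadjusted p under 0.05 (5.31% and 1.77%, against 2.82% and 4.48% of all gene bodies). Of the 39 bodies tested in the replication list, 5 were higher and 0 lower at that threshold, 13 were higher without overlap (33.3%, against 18.8%) and 3 lower (7.69%, against 19.3%), and 30 lay above 0, as did 9164 of 18488 gene bodies. Of 93 promoters of these genes tested, 0 were called, with 4 higher and 1 lower at that threshold (4.30% and 1.08%, against 4.18% and 1.79% of all promoters).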

How the data were processed

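The members and gene lists were chosen with earlier results of these data known. RNA and DNA came from the same cell pellets. The RNA values are log2 levels per gene, deposited by the authors after alignment to mm10, counting of exon reads and DESeq2 normalisation (per the labels, DESeq2 1.2.5). The deposited log2 values have nearly the same distribution in all 4 libraries, as after quantile normalization, a step not given in the sources used here. RRHP values are read counts per CpG and strand, deposited by the authors without normalization. The RRHP aligner is not given in the sources used here. RNA was tested with limma 3.58.1 on genes that reached a log2 level of 5 in 2 libraries or more. Counts were summed per gene over the exon and intron or the promoter columns and tested with edgeR 4.0.16 (quasi-likelihood, TMM on library totals, Benjamini-Hochberg adjustment). A site missing from a library counted as 0. Alternatives used DESeq2 1.42.0, other filters and scalings, a replicate block and each library left out. On simulated data the RNA test recovered 65.5% of 200 genes changed by 3 log2 units (100% with an SD of 0.3 in every gene), and the gene body and promoter tests 95.5% and 86.5% of 200 changed by 2 (92.5% and 65% with DESeq2). The single site test recovered 61% of 200 changed by 2, among 49996 simulated sites. The simulated counts had a fixed dispersion that was not estimated from these libraries. The simulated RNA change of 3 is larger than the difference of any member. These rates are therefore not the power of the tests for the members.

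All 40 members were eligible to be named. A gene of the oligodendrocyte marker list is not reported here and was left out of the list's values. Full statistics went to called members and to the 3 largest differences of each sign among those without overlap. From the other pathway lists the 2 largest of each sign without overlap were named. P-values measure the spread between 2 libraries per group. Intervals were not computed, and reads are not independent molecules. Same-numbered libraries of the populations did not deviate together in RNA (r = -0.07) or at sites (r = -0.07). They deviated in opposite directions in gene bodies (r = -0.41) and promoters (r = -0.47), and they come from different reporter lines.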

Additional observations from a re-analysis of the deposited data

How the results depend on the processing

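With 2 libraries per group, the calls depended on the library left out and, for single sites, on the read minimum. Leaving out each library in turn gave 0 to 9 members called in RNA (0 with all libraries), 1 to 19 at an unadjusted p under 0.05 (6 with all), and a median RNA difference of -0.47 to 0.11 (-0.19 with all). Gene bodies called ranged from 0 to 10, their median from -0.29 to 0.026, promoters called from 0 to 2 (Mcm6 and Rbl1, without aOPC replicate 3, where 1665 of 15190 promoters were called) and member sites called from 5 to 32. Of the other alternatives, a log2 minimum of 8 moved the median RNA difference to 0.28. Summing sites with 3 reads in every library gave 0 gene bodies called and a median of -0.023. Library totals gave a promoter median of -0.79 and reversed the promoter of Ccnb2 to -0.036. With 10 reads required in every library 1 site was called in place of 11, and it was none of the 11. The cause was not tested, but this minimum removes sites read in one population. With the replicate block 0 members were called in RNA, 1 in gene bodies, 0 in promoters and 14 sites. Over all genes 127 were called in RNA in place of 9, and calls over all sites are not given here. With the numbers crossed, chosen after seeing the data, 718 gene bodies and 337 promoters were called over all genes. Most member promoters had under 100 reads per library, and the part of depth in their result was not tested.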
